A study of Rattus norvegicus with 6 samples.

Results

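The genes described here are 6 genes of ketone body use and monocarboxylate transport, Bdh1, Bdh2, Oxct1, Acat1, Slc16a1 and Slc16a7. They were taken by gene name from 1-colour expression arrays of rat left ventricle, and make up 6 of the 26456 gene names and 24 of the 42877 non-control spots of each array. Total RNA came from hearts of male rats of the OLETF strain, an inbred rat that becomes obese and develops type 2 diabetes, and of the LETO strain, its non-diabetic control. Each strain gave 3 samples, which the design text calls independent experiments, with 1 array per sample. The rats were 27 weeks old for LETO 1, OLETF 1 and OLETF 3 and 28 weeks old for LETO 2, LETO 3 and OLETF 2. The labels name no treatment and no transgene in either strain, so strain and diabetes cannot be told apart here.

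Ketone bodies are made mainly in the liver and are burned in the mitochondria of the heart. Beta-hydroxybutyrate is first oxidised to acetoacetate by the dehydrogenase that Bdh1 encodes. Acetoacetate then takes coenzyme A from succinyl-CoA through the transferase of Oxct1, and the thiolase of Acat1 splits the product into acetyl-CoA for the citric acid cycle. The transporters MCT1, from Slc16a1, and MCT2, from Slc16a7, carry ketone bodies, lactate and pyruvate across the plasma membrane together with a proton. Bdh2 encodes a second, cytosolic hydroxybutyrate dehydrogenase.

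Every one of the 6 genes was read by a single probe of 60 bases, so no second probe could check a value. The probes of Oxct1 and Slc16a7 were printed 10 times on each array, and the other 4 probes once. The first 30 bases of each probe are given 5′ to 3′, as the array files hold them, because each value below is the signal of that one oligonucleotide.
Bdh1: ctgtctatctagagttgattttatataaag
Bdh2: aattacccaggtattcaaactcgagtcctt
Oxct1: tggatatgtcttcacatgcacttgcttatc
Acat1: atacggtggggtaaaacttgaagacctgat
Slc16a1: cagagacactgtgtggttagaagtaattgg
Slc16a7: gcaggcatccaaagaaatggaggctttgag

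On the rn4 build named in the array files, the probe of Bdh1 lies at chr11:71130669-71130728 on the minus strand. The probes of Oxct1 and Slc16a1 lie on the plus strand, at chr2:53217671-53217730 and chr2:199879777-199879836. Those of Acat1, at chr8:57056663-57056722, and Slc16a7, at chr7:65210821-65210880, lie on the minus strand. The Bdh2 probe covers chr2:232771263-232772495 on the plus strand, a span of 1233 bases for 60 bases of probe. The files do not say whether a probe lies in coding or untranslated sequence. The accession of each of the 6 probes carries the same symbol in the RefSeq table of the GRCr8 assembly. Over the 15 pairs of member probes the longest run of bases in common was 5 to 7 bases. G and C made up 26.7% of the Bdh1 probe, the lowest share of the 6, against 45.0% in those of Acat1 and Slc16a7.

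Signal is given as log2 of the processed intensity over the array's 75th percentile, so 0 means a spot as bright as that percentile. The percentile itself lay between 887.3 and 1228 intensity units, and no spot was saturated. The first slide held the LETO arrays together with OLETF 1, and the second slide held the remaining OLETF arrays. LETO 1 had an array quality weight of 0.205, the lowest of the 6 arrays. LETO 3 had the highest at 3, and OLETF 3 the highest of its strain at 2.37. Values with array quality weights therefore rest mainly on LETO 3 and OLETF 3. Cardiomyocyte markers were bright on all arrays, with Myh6 between 8.63 and 8.94 and Tnnt2 between 8.56 and 8.95, and their list of 10 had a median difference of −0.08 with no member called. Hepatocyte markers, of interest because the liver makes ketone bodies, were not well above background on any array for 4 of 6, among them Alb. In whole tissue, fewer cells of a type and less RNA per cell cannot be told apart.

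None of the 6 genes passed the test between strains (limma, Benjamini-Hochberg adjusted p below 0.05 over 18816 genes). In the same test 1.5% of all genes were called higher and 1.05% lower in OLETF. Bdh1 came closest, at 0.746-fold of the LETO level, and it was the 1 gene of the 6 with an unadjusted p below 0.05, a mark that 12.4% of all genes reached. For the next steps in the mitochondrion, Oxct1 stood at 1.02-fold and Acat1 at 0.997-fold of LETO, and neither was called. The median difference of the 6 genes was −0.10 on the log2 scale, beside −0.01 over all genes tested. In Bdh1 and Bdh2 all OLETF arrays lay below all LETO arrays, which is 2 of 6 genes, whereas 8.43% of all genes tested showed that order. None of the 6 had all OLETF arrays above all LETO arrays, an order that 8.92% of all genes showed.

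**Figure D1:**
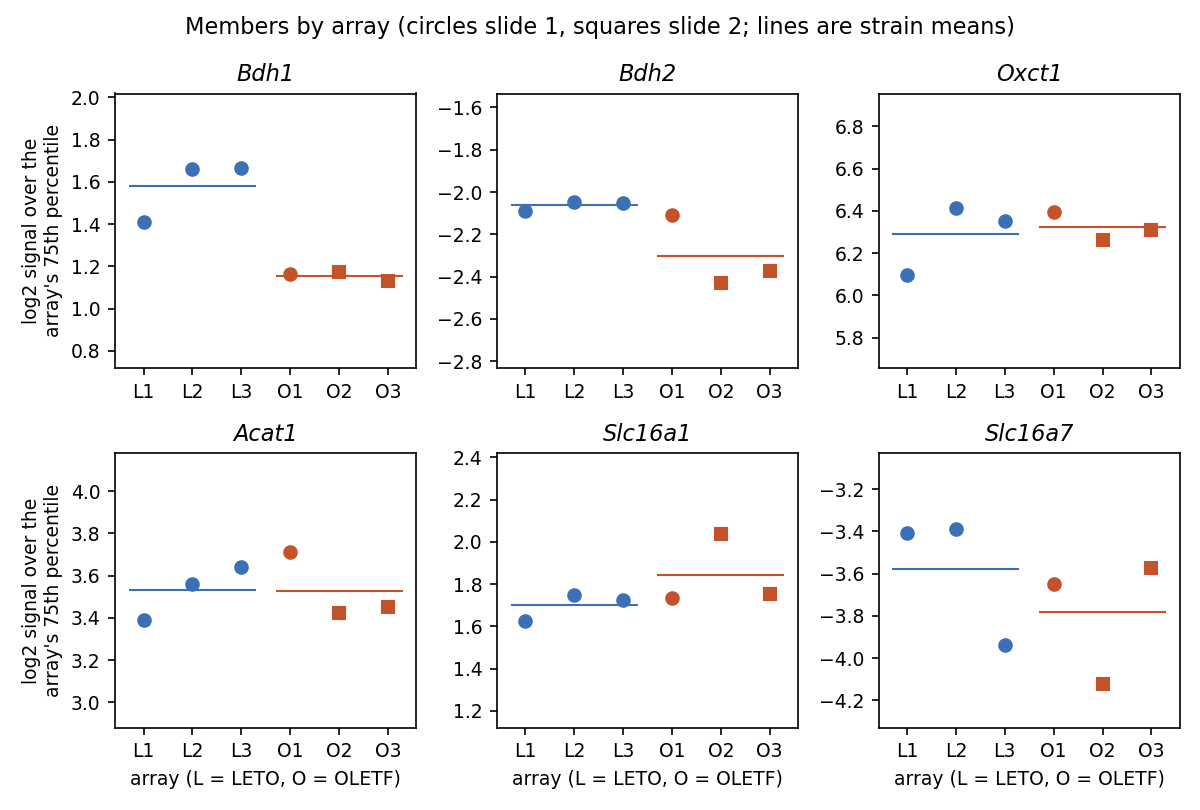
Signal of the 6 genes on each array, as log2 over the array's 75th percentile, with LETO in blue and OLETF in orange. Circles are arrays of the first slide, squares of the second, lines are strain means, and every panel spans the same height. The OLETF points of Bdh1 sit together between 1.13 and 1.17, below all LETO points.

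Bdh1, the mitochondrial beta-hydroxybutyrate dehydrogenase, read 1.41, 1.66 and 1.67 on LETO arrays 1 to 3, against 1.16, 1.17 and 1.13 on OLETF arrays 1 to 3. The OLETF arrays were nearly level with each other, and the spread in LETO came from LETO 1, the lowest of its strain. The mean was 1.58 ± 0.15 in LETO and 1.16 ± 0.02 in OLETF (SD, n = 3 each). The difference was −0.42 ± 0.10 on the log2 scale (SE, limma adjusted p = 0.0912), with a 95% confidence interval from −0.66 to −0.19 that is not adjusted for the number of genes. As a ratio, OLETF stood at 0.746-fold of LETO, with an interval from 0.634 to 0.877. Of all genes tested, 9.03% had a larger difference in size and 3.96% a lower p. An exact two-sided permutation test over the 6 arrays gave p = 0.10, the smallest that 3 against 3 arrays allow.

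The Bdh1 value was nearly the same on the slide that held both strains. There OLETF 1 lay below the LETO mean by a log2 difference of −0.42, and OLETF 2 and OLETF 3 differed from OLETF 1 by −0.01 on average. With slide as a block the value was the same quantity, −0.42, because the second slide held no LETO array. Its adjusted p was 0.582. Without LETO 1 the value was −0.51 and the gene was called (adjusted p = 0.0215). It was also called with array quality weights (−0.51, adjusted p = 0.00411), with normexp background correction and quantile normalization together (−0.44, adjusted p = 0.0254), with a trended and robust variance model (adjusted p = 0.0438) and with slide as a random block (adjusted p = 0.0486). The call was made in 5 of 21 alternative tests, whose adjusted p ranged from 0.00411 to 0.582. In the order given, those 5 settings called 374, 875, 329, 392 and 435 of all genes higher, against 283 in the main setting. They called 241, 825, 196, 262 and 328 lower, against 197. The sign of Bdh1 was negative in all 21 tests. Settings that changed only filters, probe averaging, variance model, replicate block or flagged spots left the value at −0.42, so its sign could not turn.

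**Figure D2:**
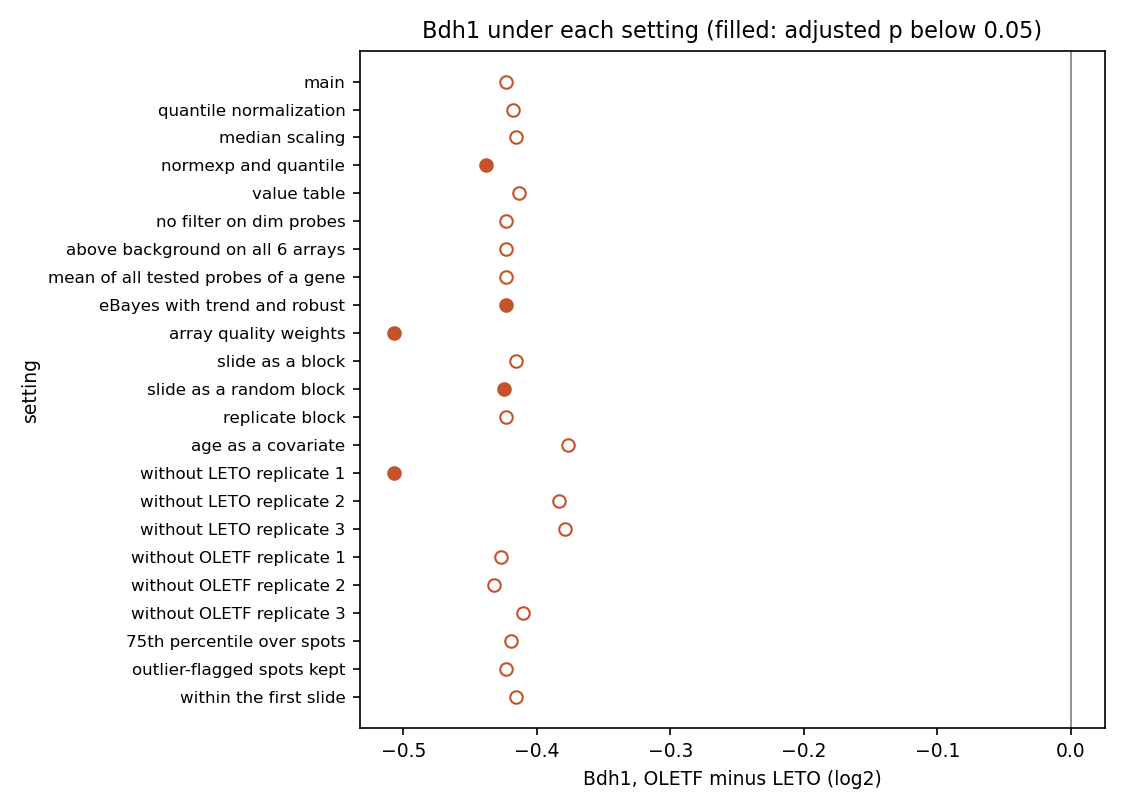
Difference of Bdh1 between OLETF and LETO on the log2 scale (horizontal) under the main setting and each alternative (vertical). Filled points have an adjusted p below 0.05, and the value within the first slide has no test. All points lie between −0.51 and −0.38.

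Bdh2, the cytosolic dehydrogenase, read −2.09, −2.05 and −2.05 on LETO arrays 1 to 3, against −2.11, −2.43 and −2.37 on OLETF arrays 1 to 3. The strains did not overlap, but OLETF 1 lay close to the LETO arrays, and the lower values were those of OLETF 2 and OLETF 3 on the second slide. The difference was −0.24 ± 0.11 on the log2 scale (SE, limma adjusted p = 0.430), with a 95% interval from 0.711-fold to 1.01-fold of LETO. On the first slide alone it was −0.05. OLETF 2 and OLETF 3 together lay −0.29 from OLETF 1.

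Oxct1, the transferase that activates acetoacetate, had a processed intensity between 68090 and 103300 units before scaling. Scaled, it read 6.10, 6.41 and 6.35 on LETO arrays 1 to 3, against 6.39, 6.26 and 6.31 on OLETF arrays 1 to 3. The strains overlapped, and LETO 1 was the lowest array. The difference was 0.03 ± 0.11 (SE, adjusted p = 0.966). The 95% interval ran from 0.857-fold to 1.22-fold of LETO, so a change of the size seen for Bdh1 lies outside it. Without LETO 1 the log2 difference was −0.06.

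Acat1, the mitochondrial acetoacetyl-CoA thiolase, read 3.39, 3.56 and 3.64 on LETO arrays 1 to 3, against 3.71, 3.42 and 3.45 on OLETF arrays 1 to 3. The highest array of all was OLETF 1 and the lowest LETO 1, and the strains overlapped. The difference was −0.0045 ± 0.12 (SE, adjusted p = 0.996), with a 95% interval from 0.824-fold to 1.21-fold of LETO. On the first slide alone OLETF 1 lay 0.18 above the LETO mean, and OLETF 2 and OLETF 3 together lay −0.27 from OLETF 1. The OLETF arrays thus lay on either side of the LETO mean.

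Slc16a1, which encodes the transporter MCT1, read 1.62, 1.75 and 1.72 on LETO arrays 1 to 3, against 1.73, 2.04 and 1.75 on OLETF arrays 1 to 3. OLETF 2 was the one array that stood above the rest. The difference was 0.14 ± 0.11 (SE, adjusted p = 0.759), with a 95% interval from 0.922-fold to 1.32-fold of LETO, and on the first slide alone it was 0.03. Without 1 array the log2 difference ranged from 0.04, without OLETF 2, to 0.20.

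Slc16a7, which encodes the transporter MCT2, had a processed intensity between 51.02 and 103.0 units before scaling. It read −3.41, −3.39 and −3.94 on LETO arrays 1 to 3, against −3.65, −4.12 and −3.57 on OLETF arrays 1 to 3. LETO 3 and OLETF 2 were the low arrays of their strains, and the strains overlapped. The difference was −0.20 ± 0.20 (SE, adjusted p = 0.844), and the 95% interval from 0.624-fold to 1.21-fold of LETO was the widest of the group on the log2 scale. Single arrays moved this value, to −0.03 without OLETF 2, −0.12 without LETO 1, −0.11 without LETO 2, −0.31 without OLETF 3 and −0.38 without LETO 3. On the first slide alone it was −0.07. The sign turned with array quality weights, which gave 0.09.

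The repeated spots of Oxct1 and Slc16a7 show how much of the spread between arrays came from reading the spots. For Oxct1 the SD between the 10 spots of an array lay between 0.03 and 0.05, and the SD of the array means over all 6 arrays was 0.12. For Slc16a7 the spots varied more, with an SD between 0.09 and 0.16 on an array, and 10 of its 60 spots carried an outlier flag and were left out. Its array means had an SD of 0.29, and the standard error of a mean over spots was at most 0.05. In both genes the arrays varied by more than the spots of one array did. All 10 Slc16a7 spots were well above background on each array. The other 4 genes had 1 spot per array, so the same split could not be made for Bdh1.

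**Figure D3:**
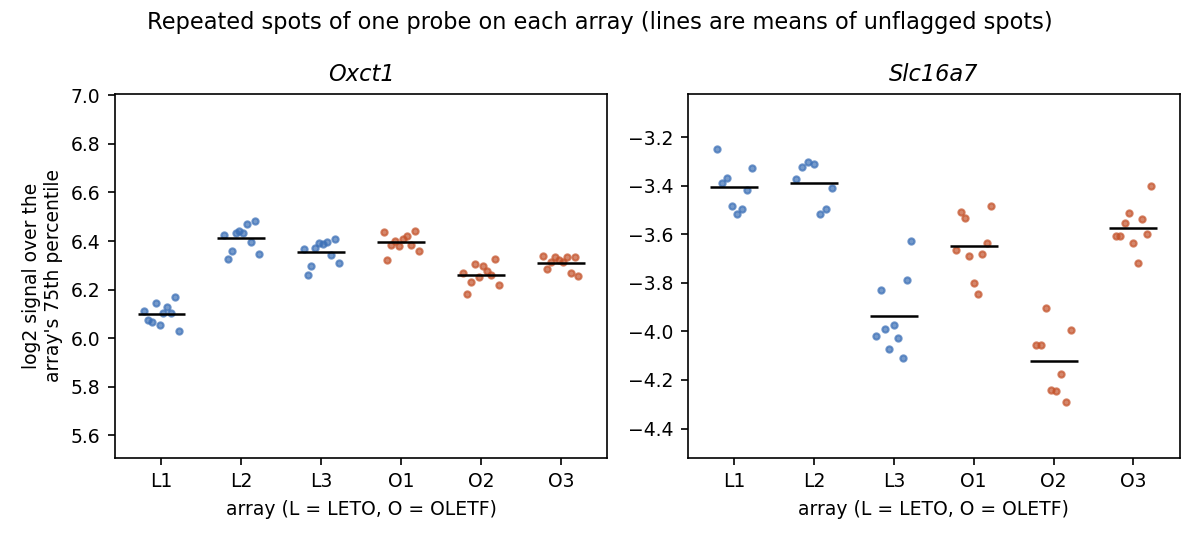
Each unflagged spot of the Oxct1 and Slc16a7 probes on each array, as log2 signal over the array's 75th percentile, with LETO in blue, OLETF in orange and the mean of the spots as a line. The spots of Oxct1 on LETO 1 lie around 6.10, and the spots of Slc16a7 are lowest on LETO 3 and OLETF 2.

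Differences between genes within an array do not depend on the percentile subtracted from that array. They were not computed under quantile normalization, which is not such a subtraction. Such a difference was taken for each of the 15 pairs of genes and compared between strains, a comparison added after the values had been seen. Bdh1 minus Oxct1, set to a LETO mean of 0, was 0.02, −0.04 and 0.02 on LETO arrays 1 to 3, against −0.52, −0.38 and −0.47 on OLETF arrays 1 to 3. LETO 1, which was low for both genes, was level with the other LETO arrays on this measure. The strains differed by −0.46 (SD 0.04 in LETO and 0.07 in OLETF, n = 3 each). Bdh1 minus Acat1 differed by −0.42 and Bdh1 minus Slc16a1 by −0.57, and in these pairs the strains did not overlap either. Bdh1 minus Bdh2 differed by −0.18 and Bdh1 minus Slc16a7 by −0.22, with overlap in both.

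Bdh2 against Oxct1, Acat1 and Slc16a1 gave the other 3 of the 6 pairs whose strains did not overlap, with differences of −0.28, −0.24 and −0.38. Each of these 6 pairs had an exact two-sided permutation p of 0.10, the smallest possible, and 0.25 after Benjamini-Hochberg adjustment over the 15 pairs. No pair of genes can pass this exact test with 3 arrays per strain. All 6 pairs hold Bdh1 or Bdh2, whose strains did not overlap on their own, so they are not further evidence, and the share among pairs of other genes was not computed.

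**Figure D4:**
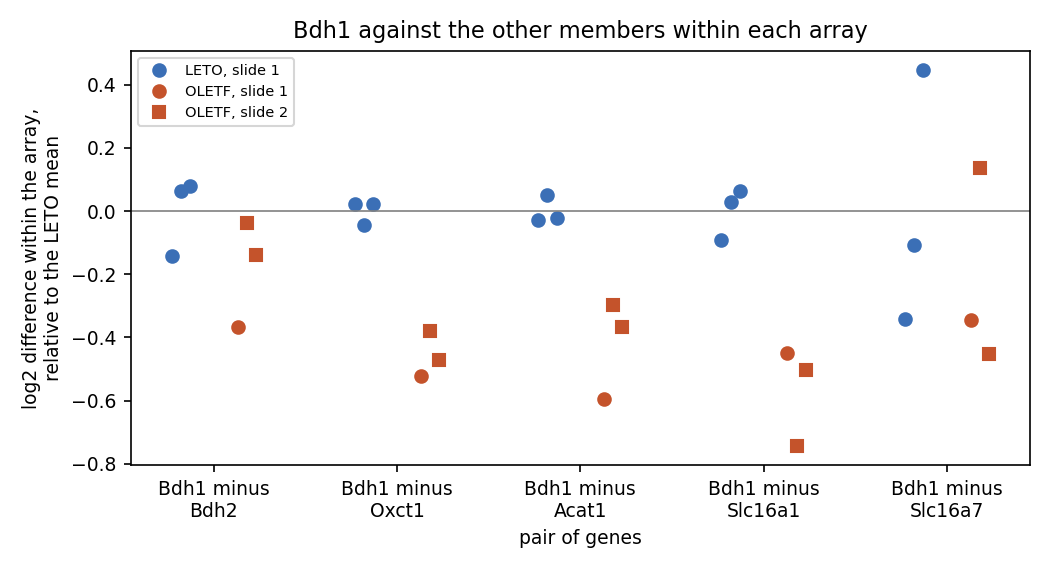
Bdh1 minus each of the other 5 genes on each array (log2, vertical), relative to the LETO mean of that pair. LETO is blue, OLETF orange, circles are the first slide and squares the second. The OLETF points lie below all LETO points against Oxct1, Acat1 and Slc16a1, and overlap with them against Bdh2 and Slc16a7.

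The neighbouring steps of the pathway were described with 35 further genes. Of these 32 were on the array, and 21 were bright enough to be tested. None was called in either direction, beside 1.5% higher and 1.05% lower over all genes. Of the 21 genes 4 had an unadjusted p below 0.05, which is 19.0%, against 12.4% of all genes tested. Their median difference was −0.03 on the log2 scale. All OLETF arrays lay below all LETO arrays in 2 of them and above in 4, or 9.52% and 19.0%, beside 8.43% and 8.92% of all genes.

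Among the genes that handle acetate and acetoacetate, Acss2, a cytosolic and nuclear acetyl-CoA synthetase, read −0.15, −0.32 and −0.22 on LETO arrays 1 to 3, against 0.12, 0.12 and 0.10 on OLETF arrays 1 to 3. Every OLETF array was above every LETO array, and the OLETF arrays were level with each other. The difference was 0.35 ± 0.08 (SE, adjusted p = 0.102), or 1.27-fold of LETO, and on the first slide alone it was 0.36. It was called with normexp and quantile normalization together (adjusted p = 0.0375) and with array quality weights (adjusted p = 0.0156) and in no other setting that was run. The mitochondrial synthetase Acss1 had a difference of 0.06 (adjusted p = 0.927). Aacs, which activates acetoacetate for lipid synthesis in the cytosol, had −0.26 (adjusted p = 0.682).

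Of the other SLC16 genes 8 of 12 were tested, and 7 of these had negative values. Slc16a8, chosen after its values were seen, had −0.28 ± 0.09 (SE, adjusted p = 0.237), and its second probe gave −0.30. With normexp and quantile normalization together the value was −0.13. It was called with array quality weights (adjusted p = 0.0409). Slc16a11 read −0.57, −0.46 and 0.10 on LETO arrays 1 to 3, against −0.86, −0.84 and −0.61 on OLETF arrays 1 to 3, and LETO 3 stood above the rest. Its difference was −0.46 ± 0.18 (SE, adjusted p = 0.368), and −0.25 without LETO 3. Slc16a6 had −0.11, Slc16a13 −0.06, and Slc16a3, named outside the rule as the lactate exporter MCT4, −0.08, with adjusted p of 0.904, 0.970 and 0.944.

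A chaperone of these transporters and the separate pyruvate carrier of the mitochondrion gave small values. Of the 2 chaperones listed 1 was tested. Bsg, the chaperone that brings MCT1 to the membrane, had a difference of −0.06 (adjusted p = 0.944), and LETO 1 was its highest array at 3.37 against 2.97 to 3.12 on the other 5. The pyruvate carrier subunits Mpc1 and Mpc2, named Brp44l and Brp44 on the array, had −0.03 and 0.08 (adjusted p = 0.977 and 0.924). For both, LETO 1 was the lowest array, as it was for Oxct1 and Acat1.

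Lactate dehydrogenase B, from Ldhb, had a difference of −0.02 (adjusted p = 0.977). Ldha, the isoform of glycolytic tissue, read 6.92, 6.90 and 6.95 on LETO arrays 1 to 3, against 6.98, 7.23 and 7.06 on OLETF arrays 1 to 3, a difference of 0.17 ± 0.09 (SE, adjusted p = 0.592). That value was 0.06 on the first slide alone, 0.10 without OLETF 2 and 0.26 with quantile normalization. Ldhd, the D-lactate dehydrogenase, read 0.46, 0.41 and 0.48 on LETO arrays 1 to 3, against 0.60, 0.59 and 0.61 on OLETF arrays 1 to 3, a difference of 0.15 ± 0.08 (adjusted p = 0.524). In both genes all OLETF arrays were above all LETO arrays. The hydroxybutyrate receptor Hcar2, named Niacr1 on the array, had −0.06 (adjusted p = 0.953). The lactate receptor Hcar1, Ffar3 and the sodium-coupled transporters Slc5a8 and Slc5a12 were not well above background on any array.

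**Figure D5:**
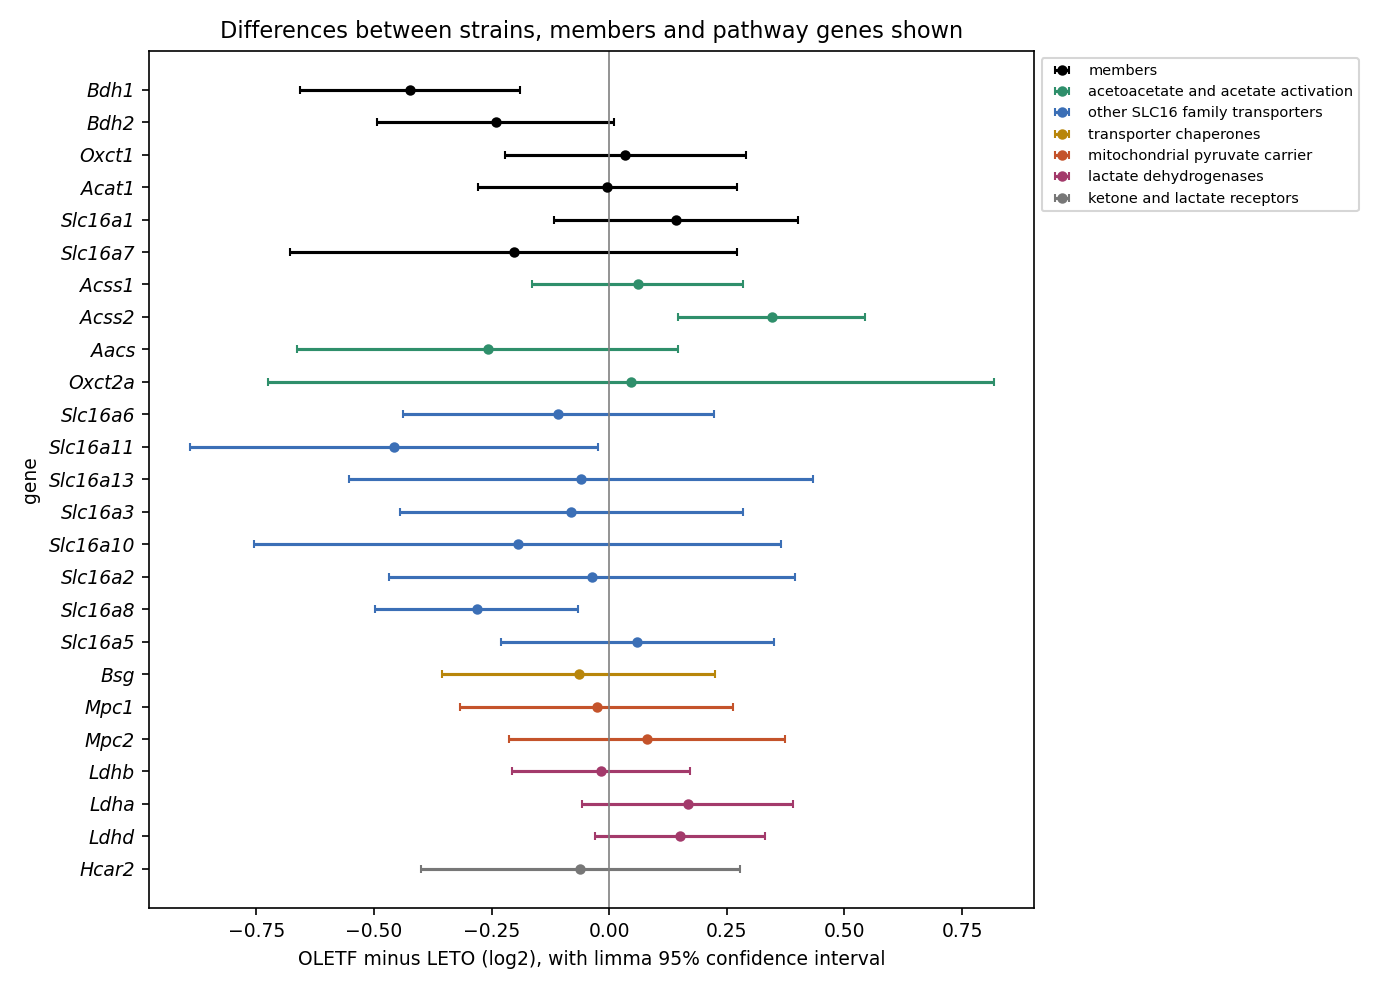
Differences between OLETF and LETO on the log2 scale with limma's 95% confidence interval, not adjusted for the number of genes, for the 6 genes (black) and 19 of the 21 pathway genes tested (coloured by list). Bdh1 lies at −0.42 and Acss2 at 0.35, and most intervals include 0.

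The genes whose pattern over the 6 arrays was most like that of Bdh1 were Entpd6, a nucleotide-hydrolysing enzyme, Fam55c, and Ipo5, a nuclear import receptor. Likeness was the root mean square difference of values centred on each gene's mean, which was 0.03 on the log2 scale for all 3 of them. Their differences between strains were −0.46, −0.39 and −0.40, and none was called, with adjusted p of 0.0675, 0.140 and 0.0934. Each was lowest within LETO on LETO 1. Both likenesses to Bdh1 follow from how the 3 genes were picked on the same 6 arrays, so they are not further evidence.

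Of the 11 marker lists, 3 had summed levels lower on all OLETF arrays than on all LETO arrays and 1 had them higher, orders that 8.43% and 8.92% of single genes showed. Smooth muscle and pericyte markers, of which 5 of 6 were tested, had a summed level of 8.80 to 11.5 times the 75th percentile in LETO and 8.01 to 8.46 in OLETF. None of the tested members of that list was called. The lower values were those of Acta2 (−0.44), Myh11 (−0.79) and Tagln (−0.78), whereas Pdgfrb (−0.01) and Rgs5 (0.04) were nearly level between strains. Lymphocyte markers, 4 of 8 tested with 1 called lower, summed to 1.10 to 1.33 in LETO and 0.848 to 0.970 in OLETF, and Cd79b and Ms4a1 were not well above background on any array. That sum is mostly Cd3d (−0.16), which overlapped between strains. The called marker was Cd3g (−0.96), while Cd8a (−1.02) and Cd4 (0.10) were not called. The hepatocyte list summed to 5.37 to 6.29 in LETO and 2.63 to 3.65 in OLETF over the 2 of 6 markers tested, of which Ttr was called lower and Serpina1 was not called, and the sum is nearly all Ttr. Macrophage markers, 5 of 6 tested with none called, summed to 9.14 to 11.7 in LETO and 12.0 to 12.7 in OLETF. That sum is mostly Lyz2, at 2.90 to 3.19 in LETO and 3.29 to 3.42 in OLETF on the log2 scale, whereas Cd14, Cd163, Csf1r and Mrc1 overlapped between strains. By the median of each list in place of its sum, the macrophage list overlapped and the adipocyte list, with 2 of 6 tested, was higher on all OLETF arrays. Endothelial, fibroblast, cardiomyocyte, atrial, adipocyte, nerve and red blood cell sums overlapped between strains. The atrial sum is mostly Myl4, which differed by −0.09. Myl7 read 2.96, 5.15 and 0.54 on LETO arrays 1 to 3, against 3.85, −0.72 and −0.57 on OLETF arrays 1 to 3. Sln varied from −4.04 to 1.68 in LETO and −4.05 to 1.25 in OLETF, and no atrial marker was called. Of the red blood cell markers 3 of 6 were tested. Slc4a1 was called higher (3.19, limma adjusted p = 0.00589), whereas Hba-a2 (−0.94) and Hbb (−2.22) had negative values and were not called. Whether these cells had a part in the value of Bdh1 was not tested.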

How the data were processed

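Spot signals were the linear intensity of Cy3 in 6 scanner files, which the authors deposited as Agilent Feature Extraction output, version 10.7.3.1 per the file headers (the submitters' processing notes name version 9.1), background-subtracted and detrended. The deposited value table holds the same intensity divided by a constant per array. Replicate numbers follow the titles. The source name of LETO 2 gives another number.

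The log2 intensity of unflagged spots was averaged per probe, and the 75th percentile over non-control probes was subtracted. A probe was tested if well above background on all 3 arrays of a strain, which left 21484 of 30367 probes. The brightest stood for a gene, giving 18816 genes. Differences were tested across all genes with limma 3.58.1 in R 4.3.3 (lmFit, eBayes, Benjamini-Hochberg at 0.05). Scripts were tested on simulated data, with 50 changed genes per size of change. There 10% of 1.4-fold, 42% of 1.6-fold, 70% of 2-fold and 90% of 4-fold changes were called, so small changes were mostly missed. Figures used matplotlib 3.10.9.

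Named genes were the 6 members, from each pathway list the called genes and the 3 brightest others, and the 3 genes most like the member with the lowest adjusted p. Slc16a3, Slc16a8, the genes not above background and markers other than Myh6, Tnnt2 and Alb fall outside that rule and were named with their values seen. One pathway list is counted but its genes are not reported here. Members and lists were chosen with earlier results of these data known. Limma p-values set the difference between strains against the spread between these samples, with variance information shared over all genes tested. Alternatives covered scaling, background, filters, probes, variance model, weights, slide, age, replicate number and leaving out each array. Scaling over spots and keeping flagged spots were added after seeing the data. Same-numbered arrays of the strains correlated at −0.0882, −0.137 and −0.00795 in their deviations. These values gave no sign of pairing by number, but with 3 arrays per strain they cannot exclude it.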

Additional observations from a re-analysis of the deposited data

How the results depend on the processing

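Besides the main setting, 22 settings were run. Slc16a1 and Bdh2 kept their sign and stayed uncalled in all of them, and Bdh1 kept its sign. Filters, probe averaging, the variance model, the replicate block and flagged spots left these 3 values unchanged, so no sign could turn there. Bdh1 was called with normexp and quantile normalization together (−0.44), trended and robust eBayes (−0.42), array quality weights (−0.51) and slide as a random block (−0.42), and without 1 array it ranged from −0.51 to −0.38. Acss2 was the 1 pathway gene called with normexp and quantile normalization together, and Acss2 and Slc16a8 were the 2 called with array quality weights. Within the first slide Bdh2 was −0.047 and Acat1 0.18, which are the same quantities that slide as a block gives. The sign of Acat1, which lay near 0, turned with quantile normalization (0.0027), median scaling (0.0032), the value table (0.0053), age as a covariate (0.0043) and slide as a block (0.18), and it ranged from −0.096 to 0.051 without 1 array. Oxct1 turned with array quality weights (−0.035) and ranged from −0.061 to 0.10 without 1 array. Slc16a7 turned with array quality weights (0.090). Over all genes 283 were higher and 197 lower. The counts were 149 and 91 without a filter on dim probes, 875 and 825 with array quality weights, 52 and 53 with slide as a block, and 435 and 328 with slide as a random block, where the estimated correlation of arrays on a slide was −0.157. Without 1 array they ranged from 110 to 374 and from 87 to 241. With a replicate block 166 were higher, and no member was called. The causes were not tested. With 3 arrays per strain and 1 probe per gene, the number of arrays limits the precision.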
